A study of Mus musculus with 6 samples.

Results

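The leukemia cells of the vehicle group were described as they stood without drug treatment. The group is made up of the 3 libraries whose count columns end in control, out of 6 libraries in the series. A gene was called expressed when it reached 1 CPM (its count scaled to a library total of 1000000) in all 3 of them. Of 27179 genes in the table, 11345 met this rule, which is 41.7%.

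RNA was sequenced from a mouse acute myeloid leukemia named A/E9a;NRASG12D, grown in C57BL/6 mice. The deposited counts are named as WT (wild-type) tumor cells, and the sample titles do not say what WT refers to. A/E9a is a shortened splice form of the fusion of RUNX1 with RUNX1T1 (AML1-ETO), and NRASG12D is an activated form of the signalling protein NRAS. Mice received vehicle for 3 days, and spleen cells were then sorted for leukemia cells, taken as GFP-positive cells that excluded propidium iodide, a dye that enters dead cells. The series title concerns plasmacytoid dendritic cells and the interferon receptor in the response of this leukemia to a histone deacetylase inhibitor, and the drug-treated libraries were not used here. Every vehicle library carries both oncogenes, so no library of normal blood cells is at hand for the levels below. The sources used here do not give the age of the mice, the number of animals behind a library, the promoter that drives each oncogene or the number of clones in the leukemia. The labels do not say that the 3 libraries came from separate animals, so the spread between them may be technical.

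Blood precursors pass through stages at which erythroid, megakaryocyte, mast cell and basophil fates are still close together. GATA1 and GATA2 are zinc finger factors that bind GATA sequences in DNA, work in complexes with TAL1, LMO2 and LDB1, and switch on red cell genes such as those of haem synthesis or, in other settings, mast cell genes such as those of the IgE receptor. Granulocytes and monocytes need other factors, PU.1 (Spi1) and the C/EBP family among them, and the RUNX1 fusion is known to interfere with C/EBP alpha in human leukemia.

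The vehicle libraries are called 2, 3 and 4 after the first number of their column, and their totals were 29548544, 27259492 and 28338952 counts. Values of the 3 libraries are given in that order throughout. A count of 1 was worth 0.0338 to 0.0367 CPM, 1 CPM took 28 to 30 counts, and a gene with 0 counts could have a level of up to 0.102, 0.11 and 0.106 CPM (3 counts, for counting error only). Between 16077 and 16387 genes had a count in a library, and 9492 genes had none in any of the 3. Pearson correlations of log2 CPM over the expressed genes, which are not independent of each other, were 0.987 between libraries 2 and 3, 0.989 between 2 and 4, and 0.994 between 3 and 4. No library was a copy of another, since the chi-square per degree of freedom of the counts was 15.4 to 34.8. The column names hold a further pair of numbers, the same for libraries 2 and 3 and different for library 4. The sources used here do not say what the pair stands for.

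The 6 genes that mark the label were expressed in every vehicle library. Gata1 (chromosome X, 7959260 to 7976663 on GRCm38) stood at 274, 254 and 262 CPM. Its partner in earlier precursors, Gata2 (chromosome 6, 88193891 to 88207032), stood at 362, 451 and 383 CPM. Both factors differed little between libraries, with means of 264 ± 9.83 CPM (SD, n = 3) and 398 ± 46.5 CPM (SD, n = 3). Car2 (chromosome 3, 14886269 to 14900770), a carbonic anhydrase abundant in red cell precursors, was at 2119, 2298 and 2677 CPM, lowest in library 2 and highest in library 4. Hdc (chromosome 2, 126593659 to 126624025), the enzyme that makes histamine, was at 1184, 1380.4 and 1260.5 CPM. Ms4a2 (chromosome 19, 11615517 to 11623790), the beta chain of the high-affinity IgE receptor, was at 376, 484 and 465 CPM. Both mast cell genes were lowest in library 2 and highest in library 3. Kit (chromosome 5, 75574987 to 75656722), the receptor for stem cell factor that is shared by progenitors and mast cells, was at 231, 224 and 216 CPM, the most even of the 6. Per kilobase (kb) of exon, which allows levels of different genes to be set side by side, Car2 had 976 CPM per kb, Hdc 199.5 CPM per kb, Ms4a2 157 CPM per kb, Gata1 108 CPM per kb, Gata2 73.8 CPM per kb and Kit 25.1 CPM per kb. The median over expressed genes was 9.53 CPM per kb, and all 6 lay above it. These genes were chosen with earlier results of these data known, so this is no test of the label. No exon of these 6 genes is shared with another annotated gene.

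The stretch before the transcription start of several genes of this programme holds GATA words. Windows of 250 bases before each start were taken from RefSeq (GRCm38.p6), and 7 are shown as examples, from 4 mast cell genes, 2 red cell genes and the gene with the widest range between libraries. They are printed 5′ to 3′ in the direction of the gene, and capitals mark the words AGATAA or AGATAG or TGATAA or TGATAG on either strand in the first 6, and GAANNTTC or TTCNNGAA, the paired units of a heat shock element, in the last. They lie at chr19:11623720-11623969 (minus strand) for Ms4a2, chr1:40429320-40429569 (plus strand, 1 of 2 starts in the table) for Il1rl1, chr3:20242182-20242431 (minus strand) for Cpa3 and chr2:126618679-126618928 (minus strand) for Hdc. Those of Cpox, Epor and Hspa1a lie at chr16:58669958-58670207 (plus strand), chr9:21963577-21963826 (minus strand) and chr17:34972157-34972406 (minus strand).
Ms4a2: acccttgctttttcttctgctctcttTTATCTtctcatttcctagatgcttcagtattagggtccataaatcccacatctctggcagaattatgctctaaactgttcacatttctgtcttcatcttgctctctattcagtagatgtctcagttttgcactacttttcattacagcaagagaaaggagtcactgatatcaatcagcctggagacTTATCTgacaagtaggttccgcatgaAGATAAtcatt
Il1rl1: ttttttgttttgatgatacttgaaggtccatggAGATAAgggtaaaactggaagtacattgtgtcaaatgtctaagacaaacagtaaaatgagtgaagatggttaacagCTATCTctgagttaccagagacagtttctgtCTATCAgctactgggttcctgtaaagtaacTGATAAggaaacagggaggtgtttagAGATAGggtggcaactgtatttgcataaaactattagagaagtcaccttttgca
Cpa3: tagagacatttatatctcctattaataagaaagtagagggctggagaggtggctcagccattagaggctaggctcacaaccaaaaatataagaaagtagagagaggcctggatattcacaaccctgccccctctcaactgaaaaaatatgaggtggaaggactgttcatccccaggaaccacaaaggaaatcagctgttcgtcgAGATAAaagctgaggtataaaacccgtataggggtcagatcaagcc
Hdc: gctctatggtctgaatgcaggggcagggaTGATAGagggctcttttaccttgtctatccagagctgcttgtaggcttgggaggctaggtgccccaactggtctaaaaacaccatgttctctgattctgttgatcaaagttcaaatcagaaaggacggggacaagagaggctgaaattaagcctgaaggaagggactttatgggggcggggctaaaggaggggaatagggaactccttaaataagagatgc
Cpox: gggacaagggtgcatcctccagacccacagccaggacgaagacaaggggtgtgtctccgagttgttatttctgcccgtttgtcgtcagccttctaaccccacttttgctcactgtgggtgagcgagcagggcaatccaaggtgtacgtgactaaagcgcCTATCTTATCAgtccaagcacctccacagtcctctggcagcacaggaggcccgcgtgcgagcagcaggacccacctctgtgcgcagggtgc
Epor: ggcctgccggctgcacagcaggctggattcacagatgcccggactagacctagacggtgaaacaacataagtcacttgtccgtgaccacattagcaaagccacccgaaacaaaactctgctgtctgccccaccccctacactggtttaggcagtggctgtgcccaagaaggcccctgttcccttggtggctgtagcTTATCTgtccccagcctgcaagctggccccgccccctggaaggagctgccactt
Hspa1a: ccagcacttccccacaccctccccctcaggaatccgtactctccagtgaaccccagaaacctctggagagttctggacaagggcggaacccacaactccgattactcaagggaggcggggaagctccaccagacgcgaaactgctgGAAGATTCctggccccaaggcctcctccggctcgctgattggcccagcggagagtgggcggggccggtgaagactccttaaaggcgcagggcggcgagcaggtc
The window of Ms4a2 has 3 matches, the nearest at positions -11 to -6 from the start, and that of Il1rl1, the gene of the interleukin-33 receptor, has 5. Only 14 of 32851 windows in the whole table, 0.0426%, have 5 or more. Cpa3 has 1 match, at -46 to -41, and Hdc 1, at -221 to -216. Cpox, a haem synthesis gene, has 2 that share a base, and Epor has 1 at -54 to -49. Every window shown for GATA words holds a match, which is not so for every gene of these groups, as the shares below show.

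Over gene groups, a GATA word stood in a window of 15 of the 20 expressed mast cell and basophil genes that are in the promoter table (75%). A gene with several starts was counted once, with a match in any of its windows. Among expressed red cell genes it stood in 22 of 37 (59.5%), and among expressed GATA-linked factors in 9 of 24 (37.5%). The background was 20.4% of 8658 expressed genes and 26.8% of all 18458 genes with a window, counted in the same way. Base composition differed as well, with a median GC content of 49.5% in the mast cell windows, 54.0% in the red cell windows and 59.8% over expressed genes, and its part in these shares was not tested. The matches describe letters in a window, not binding, and which start these cells used was not tested.

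The list of transcription factors tied to the erythroid, megakaryocyte and mast cell lineages was expressed almost in full. It joins these lineages, so its share does not measure each of them. The share expressed was 35.7% for myeloid factors, near the 41.7% of all genes, and 20.8% for lymphoid factors. Over 4 lists of factors (these lineages and stem cell and Hox factors) and a list of RUNX and RAS genes, 76 of 133 genes (57.1%) were expressed, against 41.7% of all genes. The lists were drawn up from knowledge of blood cells, and no test was run on these shares.

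Of 30 factors tied to GATA1 and GATA2, 29 were expressed (96.7%, against 41.7% of all genes). Of the 29, 20 had a mean of 100 CPM or more. The complex around the GATA factors was complete. Tal1, its basic helix-loop-helix member, was at 439, 481 and 447 CPM, and the adaptor Lmo2 was at 281, 248 and 267 CPM. Ldb1, the bridging protein, was at 383, 376 and 388 CPM. The 3 libraries differed little in all of these genes, and per kb Lmo2 (122 CPM per kb), Gata1 and Tal1 (104 CPM per kb) were similar. Zfpm1, which encodes the GATA1 cofactor FOG1, was at 174, 212 and 203 CPM. Klf1, the factor that drives adult globin genes, was at 149.9, 159.6 and 173 CPM, and Gfi1b, a repressor of red cell and platelet precursors, was at 125, 110.5 and 119 CPM. Nfe2, whose product acts in globin control and platelet release, was at 136, 203 and 176 CPM, lowest in library 2.

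Myb, which keeps progenitors dividing, was at 361, 367 and 373 CPM. Stat5a and Stat5b, which carry signals from the erythropoietin and interleukin-3 receptors, were at 312, 308 and 301 CPM and 331, 311 and 307 CPM. The highest library exceeded the lowest by 1.03-fold for Myb, 1.04-fold for Stat5a and 1.08-fold for Stat5b. Lyl1, a relative of Tal1, was at 107, 126 and 118 CPM, and Fli1, an ETS factor of megakaryocytes, was at 81.4, 115 and 92.1 CPM. Mitf, a master factor of mast cells and pigment cells, was the most variable member, at 9.71, 20.1 and 12.8 CPM, a 2.07-fold range with its high value in library 3. Its mean of 2.29 CPM per kb lay below the median of 9.53 CPM per kb over expressed genes. Erg, an ETS factor of stem cells and megakaryocytes, was the 1 member that was not expressed, at 0.677, 0.844 and 0.423 CPM. Among the 29 members with a mean of 10 CPM or more the median ratio of the highest to the lowest library was 1.22, against 1.137 over all 9089 genes at that level.

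Of 28 myeloid factors, 10 were expressed (35.7%), near the 41.7% of all genes. Spi1, which encodes PU.1, was among them at 65.5, 74.5 and 62.4 CPM, or 25 CPM per kb on average, below the 108 CPM per kb of Gata1. Klf6 was at 186, 209.8 and 166 CPM, Cebpg at 72.1, 98.8 and 94.9 CPM, Runx3 at 61.3, 66 and 59.9 CPM and Id2 at 16.4, 28.7 and 18.8 CPM. Cebpg encodes a C/EBP member that lacks an activation domain of its own. The activating C/EBP genes were low. Cebpa, needed for granulocyte formation, stood at 0.271, 0.220 and 0.318 CPM, which is 23 counts over the 3 libraries. Cebpb was at 0.575, 1.03 and 0.670 CPM, Cebpd at 0, 0.0367 and 0.176 CPM and Cebpe at 0, 0.0367 and 0.0353 CPM. Irf8, a factor of monocytes and dendritic cells, was at 0.474, 0.660 and 0.600 CPM, and Gfi1, a granulocyte repressor, was at 0.372, 1.39 and 0.565 CPM. No C/EBP gene but Cebpg reached 1 CPM in all 3 libraries, and Gfi1 did so in library 3 alone.

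Of 24 lymphoid factors, 5 were expressed (20.8%), against 41.7% of all genes. Ikzf1, which is also active in precursors, was at 289, 239.5 and 244 CPM, and Ets1 was at 98.1, 122 and 105 CPM. Gata3, a GATA factor of T cells, was at 85.8, 88.4 and 100.4 CPM, or 23 CPM per kb, against 73.8 CPM per kb for Gata2. Foxo1 and Prdm1 were under 5 CPM in every library. Pax5 and Ebf1, which define B cells, had 0.102, 0.0734 and 0.353 CPM and 0.0677, 0.147 and 0.0353 CPM, and Rag2 had 0 counts in all 3 libraries.

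Of 31 stem cell and Hox factors, 14 were expressed (45.2%), near the 41.7% of all genes. Myc, a driver of growth, was at 256, 301 and 264 CPM, and Hmga1, a chromatin protein of dividing cells, was at 202, 178 and 181 CPM. Msi2, an RNA-binding protein of stem cells, was at 81.1, 77.7 and 74.9 CPM, Tet2 at 56, 66.5 and 62.7 CPM and Bmi1 at 47.7, 45 and 48.8 CPM. The Hox programme that marks several other leukemias was low. Meis1, the usual partner of HOXA9, was at 0.677, 1.80 and 0.494 CPM, Hoxa9 had 0, 0 and 1 count, and Mecom, Hoxa5, Hoxa10, Hoxb6, Mycn and Nkx2-3 had 0 counts. Hoxb4 was the Hox gene of the list that was expressed, at 2.50, 4.77 and 4.31 CPM, and Hlf, a transcription factor of stem cells, was at 10.4, 6.71 and 7.09 CPM.

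Genes of the RUNX1 fusion and the RAS pathway were expressed in 20 of 22 cases (90.9%, against 41.7% of all genes). Runx1 was at 665, 771 and 638 CPM and Runx1t1 at 436, 395 and 285 CPM, lowest in library 4. Nras was at 1051, 1032 and 917 CPM, or 188 CPM per kb, against 11 CPM per kb for Hras. Counts per gene do not separate an introduced copy from the mouse's own gene, so the part of the transgenes in these values cannot be told apart. Cbfb, the partner subunit of RUNX1, was at 176, 199 and 188 CPM. The feedback genes Spred1 and Dusp6 of the RAS pathway were lower per kb than Nras, at 20.3 CPM per kb and 3.88 CPM per kb. Etv5, another gene of the list, was at 2.80 CPM per kb.

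**Figure D1:**
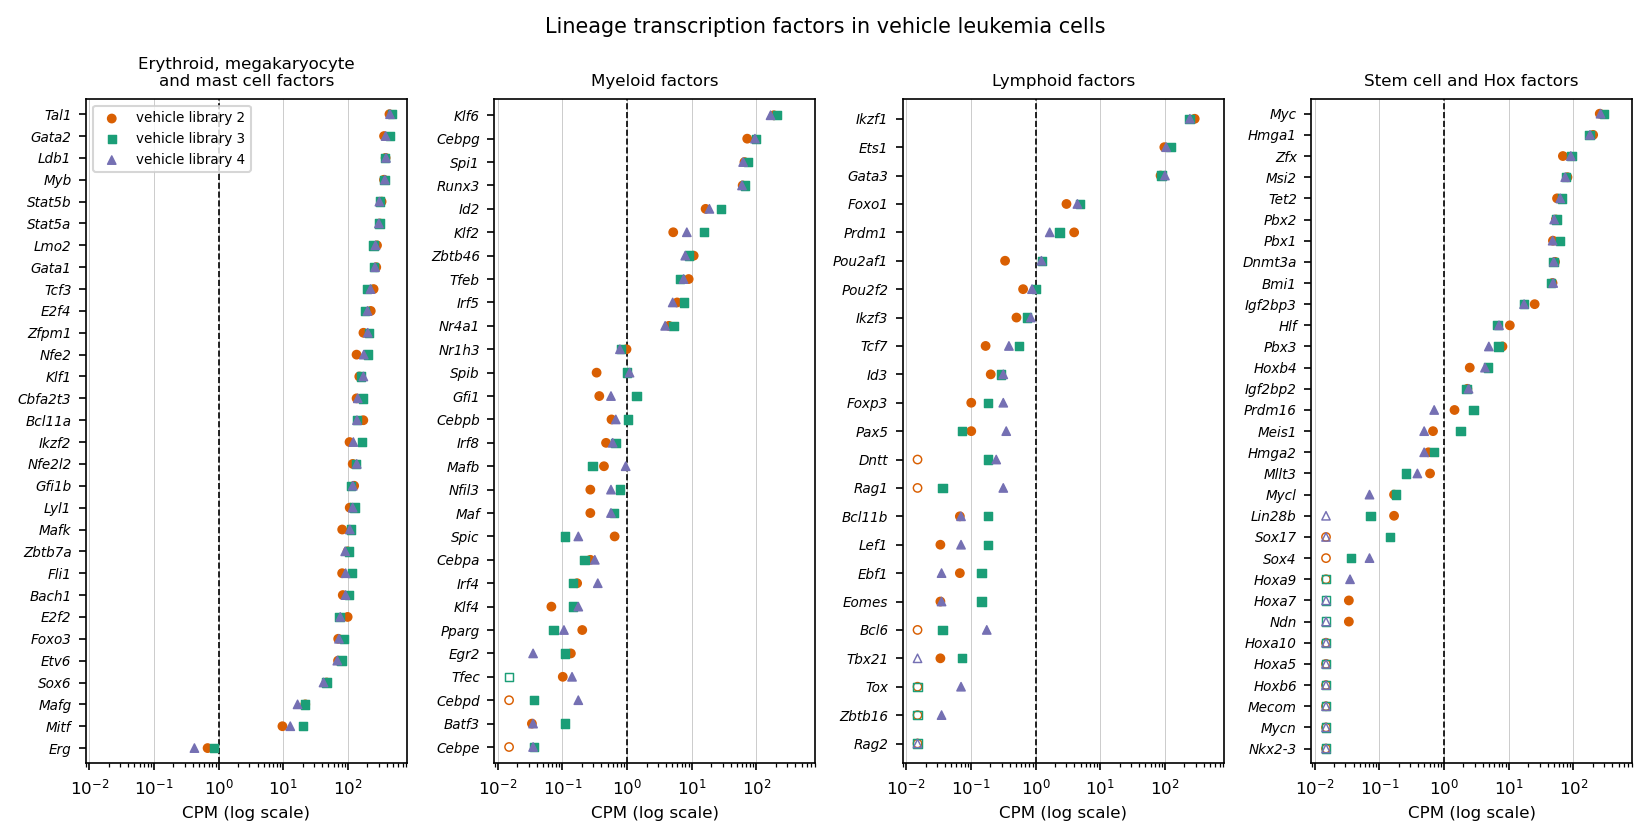
Level in CPM (log axis) of the reported members of 4 lists of transcription factors, with 1 symbol for each vehicle library; the dashed line marks 1 CPM and open symbols at the left edge mark 0 counts. In the erythroid, megakaryocyte and mast cell panel 29 of 30 genes lie right of the line. Of the full lists, 10 of 28 myeloid, 5 of 24 lymphoid and 14 of 31 stem cell and Hox factors were expressed, against 41.7% of all genes.

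The effector genes split the mast cell programme into a high and a low side. Of 38 mast cell and basophil genes, 24 were expressed (63.2%), against 41.7% of all genes. Il1rl1 was at 1107, 1469.8 and 1275 CPM and Srgn, the core protein that packs granules, was at 1037, 1262 and 1179 CPM. Alox5 and Alox5ap, which start leukotriene synthesis, were at 312, 426 and 289 CPM and 107, 158 and 140.1 CPM. Slc18a2, the transporter that loads histamine into granules, was at 81.8, 143 and 104 CPM, and Cd200r3, a receptor of basophils and mast cells, was at 163, 220.0 and 201 CPM. All of these except Alox5 were lowest in library 2, and all were highest in library 3.

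Granule proteases were lower than the histamine enzyme per kb and less even between libraries. Cpa3, the mast cell carboxypeptidase, was at 74.2, 176 and 78.1 CPM, and Cma1, a chymase, at 52.5, 115 and 60.4 CPM. Library 3 stood well above both other libraries, with ranges of 2.37-fold and 2.18-fold. Mcpt1 and Mcpt2, proteases of mucosal mast cells, were at 30.7, 55 and 33.1 CPM and 12.7, 21.6 and 15.2 CPM. Tpsb2, a tryptase gene, was at 1.02, 4.11 and 0.988 CPM. Tpsab1, which RefSeq types as a transcribed pseudogene, was at 3.45, 9.35 and 6.56 CPM. Mcpt8, a protease that marks basophils, was at 0.541, 1.94 and 0.565 CPM and reached 1 CPM in library 3 alone. Tph1, which starts serotonin synthesis, was at 41.2, 96.1 and 31.4 CPM, a 3.06-fold range.

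The 3 chains of the high-affinity IgE receptor were present in unequal amounts. The alpha chain gene, Fcer1a, which binds IgE, was at 7.34, 20.1 and 10.6 CPM. The gamma chain gene, Fcer1g, which signals, was at 0.575, 0.770 and 0.882 CPM, 63 counts in all. Per kb of exon the beta chain gene Ms4a2 had 157 CPM per kb, Fcer1a 12.7 CPM per kb and Fcer1g 0.850 CPM per kb. Cd63, a granule membrane protein used to follow mast cell release, was also under 1 CPM, at 0.237, 0.697 and 0.353 CPM. No exon of Fcer1g or Cd63 overlaps another annotated gene.

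Red cell genes were the fullest of the effector lists, with 50 of 53 expressed (94.3%, against 41.7% of all genes). Of the 53, 29 had a mean of 100 CPM or more. The adult alpha globin genes Hba-a1 and Hba-a2 were at 2018, 2005 and 1607 CPM and 2751, 2723 and 2229 CPM, and the beta globin genes Hbb-b1 and Hbb-bs were at 2307, 2885 and 1801 CPM and 628, 839 and 497 CPM. These copies are close to identical in sequence, so the division of reads within each pair is uncertain. RefSeq lists Hbb-b1 under chromosome 7 at 38285 to 39684 and Hbb-bs at 103826523 to 103827928. Whether both positions refer to the same reference sequence was not tested, so no distance between them is given. Whether the counts under Hbb-b1 come from a separate gene in these mice was not tested. All globin genes together held 0.772%, 0.847% and 0.614% of the counts. The embryonic genes Hbb-bh1 and Hbb-y were at 9.51, 6.38 and 4.02 CPM and 5.55, 8.77 and 2.96 CPM, and Hba-x was at 0.237, 0.11 and 0.0706 CPM.

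Enzymes of haem synthesis were expressed throughout. Cpox was at 544, 400.0 and 438 CPM, Fech at 318, 269 and 253 CPM and Urod at 146, 135 and 141 CPM. Alas2, the first and red-cell-specific step, was at 95.6, 64.9 and 53.4 CPM, highest in library 2. Membrane and skeleton genes of red cells followed. Ank1, which encodes ankyrin, was at 404, 328 and 323 CPM. Slc4a1, the anion exchanger known as band 3, was at 304, 175 and 176 CPM, with library 2 above both others. Tfrc, the transferrin receptor, was at 303, 252 and 311 CPM, and Epor, the erythropoietin receptor, was at 85.6, 67.7 and 81.5 CPM. Cd36 and Hba-x were under 1 CPM.

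Megakaryocyte and platelet genes were expressed in 14 of 34 cases (41.2%), near the 41.7% of all genes. F2r, a thrombin receptor, was at 584, 864 and 635 CPM, Plek, the platelet protein pleckstrin, at 268, 387 and 303 CPM, and Gp5, a chain of the receptor for von Willebrand factor, at 227, 252 and 237 CPM. Another chain of that receptor, Gp1ba, was at 58.6, 50.8 and 43.8 CPM. The remaining chains were low, with Gp9 at 0.102, 0.220 and 0.176 CPM and Gp1bb at 0.0338, 0.183 and 0.0706 CPM, though 92.9% of the exon bases of Gp1bb are shared with another annotated gene. Pf4, a platelet chemokine, was at 12.3, 22.8 and 16 CPM, and Itga2b, the platelet integrin chain CD41, was at 14, 23.5 and 12.8 CPM. Selp and Gp6 had 0 counts. In this bulk RNA, fewer cells of a type and less RNA in each cell cannot be told apart, and whether single cells carried red cell, mast cell and platelet genes together was not measured.

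Surface receptors were expressed in part. Over 5 lists, 121 of 254 genes (47.6%) were expressed, near the 41.7% of all genes, and 84 reached a mean of 10 CPM.

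Of 60 cytokine receptor genes, 33 were expressed (55%, against 41.7% of all genes). Csf2rb, the beta chain shared by the receptors for interleukin-3, interleukin-5 and GM-CSF, was at 821, 1314 and 870.1 CPM. Csf2rb2, its close copy that serves interleukin-3 alone, was at 556, 1088 and 637 CPM, and reads that fit both copies may have been counted under either. Both were highest in library 3. The ligand-binding alpha chains were far lower per kb, with Csf2ra at 6.36 CPM per kb, Il3ra at 4.10 CPM per kb and Il5ra at 1.40 CPM per kb, against 138 CPM per kb for Csf2rb. In CPM these were 18.6, 20.2 and 15.9 CPM for Csf2ra, 12.6, 12.2 and 11.7 CPM for Il3ra and 5.38, 5.65 and 3.99 CPM for Il5ra.

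Il1rl1 and its co-receptor Il1rap were likewise unequal, at 186 CPM per kb and 1.37 CPM per kb. Il2rg, the common gamma chain, was at 110.4, 141 and 123 CPM, Il4ra at 63.4, 84.8 and 73.5 CPM and Il9r at 29, 36.6 and 31.2 CPM. Both interferon receptor chains were expressed, with Ifnar1 at 56.3, 59.6 and 54 CPM and Ifnar2 at 48, 48.7 and 49.5 CPM. The highest library exceeded the lowest by 1.10-fold for Ifnar1 and 1.03-fold for Ifnar2. Acvr1b, an activin receptor, was at 105, 139 and 123 CPM, and Tgfbr2 at 54.3, 72 and 63 CPM, while Tgfbr1, whose product signals with TGFBR2, was at 1.08, 1.21 and 0.847 CPM. Il6st, the signalling chain for interleukin-6, was at 0.440, 0.697 and 0.600 CPM. Csf1r, the macrophage growth factor receptor, was at 3.38, 2.13 and 2.65 CPM, Csf3r, the G-CSF receptor, at 0.474, 0.587 and 0.353 CPM, and Flt3, a receptor of early progenitors, at 0.169, 0.147 and 0.106 CPM. Ghr and Acvr1 had 0 counts.

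Growth factor receptor kinases were expressed in 14 of 42 cases (33.3%, against 41.7% of all genes). Of the 42, 12 had 0 counts, Egfr, Erbb2, Pdgfra and Alk among them. Kit had the highest level per kb in this list. Fgfr1 was at 151, 195 and 144 CPM, Igf1r at 119, 170.4 and 145 CPM, Epha2 at 53.5, 87.6 and 76.3 CPM and Insr at 55.3, 54.8 and 47.8 CPM. Kit and Insr were the steadiest of these, whereas Epha2, an ephrin receptor, was highest in library 3. The gene for the KIT ligand, Kitl, was at 0.0338, 0 and 0.0353 CPM.

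Receptors for chemokines and small mediators were expressed in 23 of 55 cases (41.8%), near the 41.7% of all genes. F2r had 208 CPM per kb. Adgrg1, an adhesion receptor also known as GPR56 and found on leukemia stem cells, was at 343, 391 and 338 CPM. Ptgir, the prostacyclin receptor, was at 143, 217 and 180.0 CPM, Ptger3, a prostaglandin E receptor, at 92.6, 98.6 and 89 CPM, and Adora3, an adenosine receptor of mast cells, at 58.9, 101 and 101 CPM. P2rx7 and P2rx1, ion channels opened by ATP, were at 109, 162 and 134 CPM and 84.5, 115 and 101 CPM. S1pr4 and S1pr1, receptors for sphingosine 1-phosphate, were at 97.7, 115 and 102 CPM and 43.8, 57.4 and 43.7 CPM. Hrh4, a histamine receptor of mast cells and basophils, was at 15, 21 and 15.3 CPM, whereas Hrh1 had 0 counts. Chemokine receptors were sparse. Ccr2 was at 8.80, 10.2 and 9.03 CPM, and Cxcr4, which retains progenitors in the marrow, was at 0.0677, 0.440 and 0.388 CPM.

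Surface antigens used to sort blood cells were expressed in 41 of 77 cases (53.2%, against 41.7% of all genes). Spn, which encodes CD43, was at 714, 784 and 675 CPM, Adgre5, which encodes CD97, at 602, 785 and 652 CPM, and Ly6e at 619, 661 and 654 CPM. Cd24a, an antigen of red cell and lymphoid precursors, was at 402, 325 and 275 CPM, highest in library 2. Cd47, the signal that restrains macrophages, was at 229, 211 and 182 CPM, and Cd44 was at 169, 177 and 171 CPM. Against these, Ptprc, which encodes CD45, was at 2.57, 2.49 and 3.49 CPM, or 0.156 CPM per kb on average over 18.3 kb of exon. Its 243 counts over the 3 libraries are enough for it to pass the expression rule, and no exon of it is shared with another annotated gene. Cd34, an antigen of early progenitors, was at 7.45, 11.7 and 9.14 CPM, and Ly6a, which encodes the stem cell antigen SCA-1, was at 0.203, 0.293 and 0.353 CPM. Cd33 was at 0.0677, 0.183 and 0.141 CPM and Cd38 at 0.203, 0.11 and 0.247 CPM, while Prom1 and Tigit had 0 counts.

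Integrin chains were expressed in 13 of 26 cases (50%, against 41.7% of all genes). Itgb1 was at 699, 651 and 745 CPM and Itga4, with which it forms VLA-4, at 475, 431 and 415 CPM. Itgb7, another partner of Itga4 that directs cells to the gut, was at 354, 410.0 and 377 CPM. Itgal and Itgb2, which form LFA-1, were at 106, 145 and 116 CPM and 104, 120.0 and 114 CPM. Itgam, the CD11b chain of myeloid cells that also partners Itgb2, was at 0.305, 0.404 and 0.212 CPM, with 68.7% of its exon bases shared with another annotated gene. Itgax, the CD11c chain, was at 0.406, 0.257 and 0.212 CPM.

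Of 70 genes for secreted or membrane ligands, 17 were expressed (24.3%, against 41.7% of all genes) and 13 had 0 counts. Tgfb1 was at 650.2, 626 and 499 CPM, lowest in library 4. Osm, a ligand made by blood cells, was at 28.7, 28.7 and 27.2 CPM, and Il4, which basophils and mast cells secrete, was at 16, 17.6 and 15.3 CPM. Il13, which lies in the same cytokine cluster, was at 0.135, 0.660 and 0.106 CPM, and Il3, Ifng and Ifnb1 had 0 counts.

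**Figure D2:**
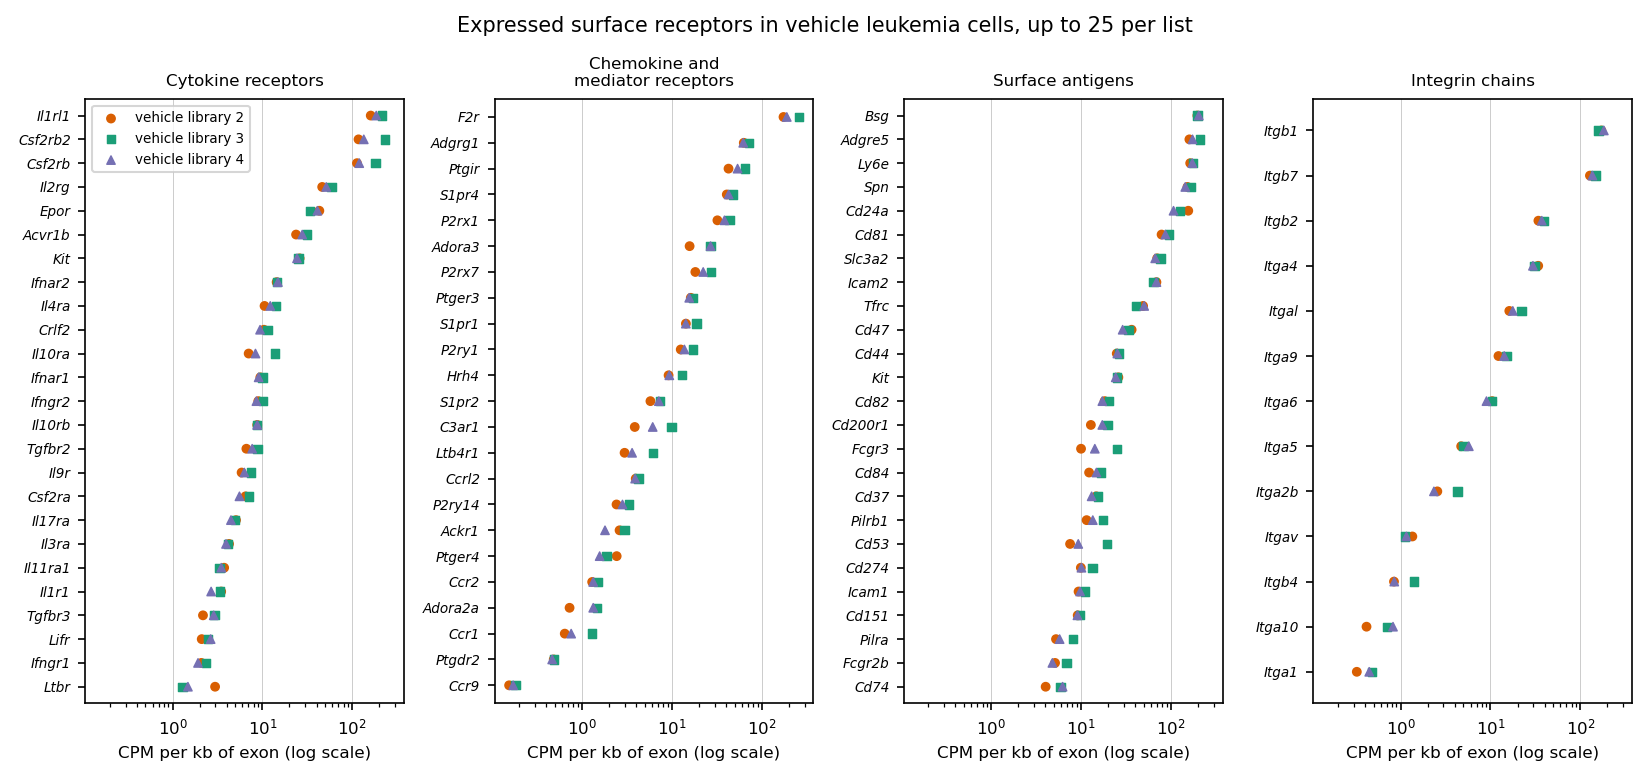
Level in CPM per kb of exon (log axis) of up to 25 reported and expressed members of 4 receptor lists, with 1 symbol for each vehicle library. Il1rl1, Csf2rb2 and Csf2rb stand at the top of the cytokine receptors and F2r at the top of the mediator receptors, and in most rows of the mediator panel the square of library 3 lies furthest right.

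Housekeeping genes led by CPM, a scale that favours long transcripts, with red cell and heat shock genes beside them. Eef1a1, a translation factor, had the highest mean level, at 7313, 8026 and 7989.7 CPM. Hspa8, the constitutive HSP70 chaperone, came next at 3394, 6417 and 8148 CPM and varied 2.40-fold. Eef2, Hsp90ab1, Actb, Rplp0 and Hsp90aa1 followed, then Laptm5, a lysosomal protein of blood cells, at 2219.6, 3129 and 2379 CPM. Hba-a2, Car2, Hbb-b1 and Hba-a1 were also among the first 20 genes. Xist, the RNA of the inactive X chromosome, was at 1754, 1706 and 1971 CPM, whereas the Y-linked genes Ddx3y, Eif2s3y, Kdm5d and Uty were under 1 CPM in all libraries and Zfy1 had 0 counts. The first 20 genes held 5.25%, 5.93% and 6.02% of the counts, and 1108 genes held 50%.

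Per kb of exon the order changed in favour of short genes. Hba-a2 came first with 3849.5 CPM per kb, followed by Eef1a1 with 3119 and Hba-a1 with 2311 CPM per kb. Hbb-b1 had no exon length and was not ranked. Car2 was the 15th gene and Gpx1, an antioxidant enzyme of red cells and other tissues, the 16th. Of the first 20 genes by CPM, 11 were also among the first 20 per kb. The 84 expressed ribosomal protein genes held 6.00%, 6.28% and 6.48% of the counts.

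Some abundant genes outside the lists were picked after their values were seen. Fermt3, an integrin activator of blood cells, was at 873, 886 and 790.1 CPM. Podxl, a sialomucin of progenitors, was at 707, 672 and 579 CPM, and Ddc, which makes dopamine and serotonin, was at 367, 465 and 443 CPM. Slc22a3, a carrier of monoamines including histamine, was at 381, 475 and 450.4 CPM. Aqp9, a channel for glycerol, was at 368, 330.3 and 347 CPM, and Abcg2, an exporter that handles porphyrins and drugs, was at 365, 322 and 349 CPM. The widest range among these 6 genes was 1.27-fold, for Ddc.

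Expression bands were wide. Of the expressed genes, 71 had a mean of 1000 CPM or more and held 12% of the counts, 2573 lay between 100 and 1000 CPM, 6445 between 10 and 100 CPM and 2256 under 10 CPM. By RefSeq type, 10312 were protein coding, 277 long noncoding and 387 pseudogenes. A further 537 genes reached 1 CPM in 1 or 2 libraries and so fell outside the rule. Just inside it lay Ctrl, at 1.02, 1.91 and 2.72 CPM, and just outside it Asb16, at 1.69, 0.990 and 1.62 CPM.

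Markers of other blood lineages and of other tissues were mostly absent. In 11 marker lists, 38 of 185 genes (20.5%) were expressed, against 41.7% of all genes, and 11 had a mean of 10 CPM or more. The counts that follow are small, so low values may come from few cells of another type or from low transcription in many, which cannot be told apart.

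For T cells, 3 of 19 markers were expressed, Skap1, Lck and Cd247, which shares 60.3% of its exon bases with another annotated gene. The defining chain Cd3e was at 0.102, 0.220 and 0.0353 CPM and Cd4 at 0.102, 0.220 and 0.212 CPM, and Trat1 had 0 counts. NK cells had 1 of 14, Nkg7 at 4.23, 10.7 and 6.35 CPM, with Ncr1 at 0, 0 and 0.0353 CPM. For B cells, 4 of 20 were expressed, Cd37, Ighm, Igkc and Cd79b. Ms4a1, which encodes CD20, was at 0.372, 0.697 and 0.635 CPM. Summed over the list, B cell markers came to 77.8, 77 and 69.4 CPM, T cell markers to 35.2, 27.9 and 32 CPM and NK cell markers to 5.08, 12.1 and 7.55 CPM.

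Mature myeloid cells left little RNA in the vehicle libraries. Of 24 granulocyte markers 2 were expressed, S100a9 at 1.08, 3.19 and 3.71 CPM and Ms4a3 at 1.59, 2.46 and 2.29 CPM. Mpo, the peroxidase of granulocyte precursors, was at 0.948, 0.477 and 0.388 CPM, and Elane, neutrophil elastase, at 0.0677, 0.0734 and 0.106 CPM. The granulocyte list summed to 9.31, 17.5 and 15.3 CPM, lowest in library 2. Of 18 monocyte markers 5 were expressed. Lyz2, which encodes lysozyme, was at 1.52, 3.15 and 2.72 CPM, and the list's sum of 294, 519 and 394 CPM was mostly Ahnak, at 214, 444 and 328 CPM, a large scaffold protein made by many cells. Eosinophils had 2 of 10, Siglecf and Il5ra, and the granule genes Epx and Ear6 had 0 counts.

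Red pulp macrophages, the phagocytes of the spleen, had 9 of 20 markers expressed (45%), near the 41.7% of all genes, and only 1 of the 9 had a mean of 10 CPM or more. Apoe was at 33.9, 36.8 and 40.6 CPM, or 17.3 CPM per kb, and Axl at 10, 8.14 and 8.36 CPM. The factor that defines these macrophages, Spic, was at 0.643, 0.11 and 0.176 CPM, and C1qa, a complement gene of macrophages, at 1.35, 0.514 and 1.16 CPM. The list's sum was 77.1, 65.8 and 72.9 CPM. Of 20 dendritic cell markers 6 were expressed, Bst2 at 74.6, 82.6 and 89.7 CPM and Cst3 at 41.7, 46.9 and 46 CPM ahead of the others. Siglech, the surface marker of plasmacytoid dendritic cells, was at 0.0338, 0 and 0.106 CPM, and Clec9a, of conventional dendritic cells, at 0.203, 0.257 and 0.176 CPM.

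Plasma cells had 2 of 9 markers expressed and endothelial and stromal cells 2 of 20. Cdh5, which defines endothelium, was at 0, 0.0734 and 0.0706 CPM, Col1a1 at 0.0677, 0.0734 and 0.0706 CPM, and Dcn, Lum and Emcn had 0 counts. Of 15 genes of non-blood tissues 3 were expressed and 8 had 0 counts. Mbp, named for myelin, was at 250.5, 267 and 265 CPM, and its gene also gives rise to the golli transcripts of blood cells. Gfap, an intermediate filament of astrocytes, was at 13.8, 8.51 and 10.7 CPM, and the brain, liver, pancreas and lung genes Neurod1, Ttr, Ins1 and Sftpc had 0 counts.

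**Figure D3:**
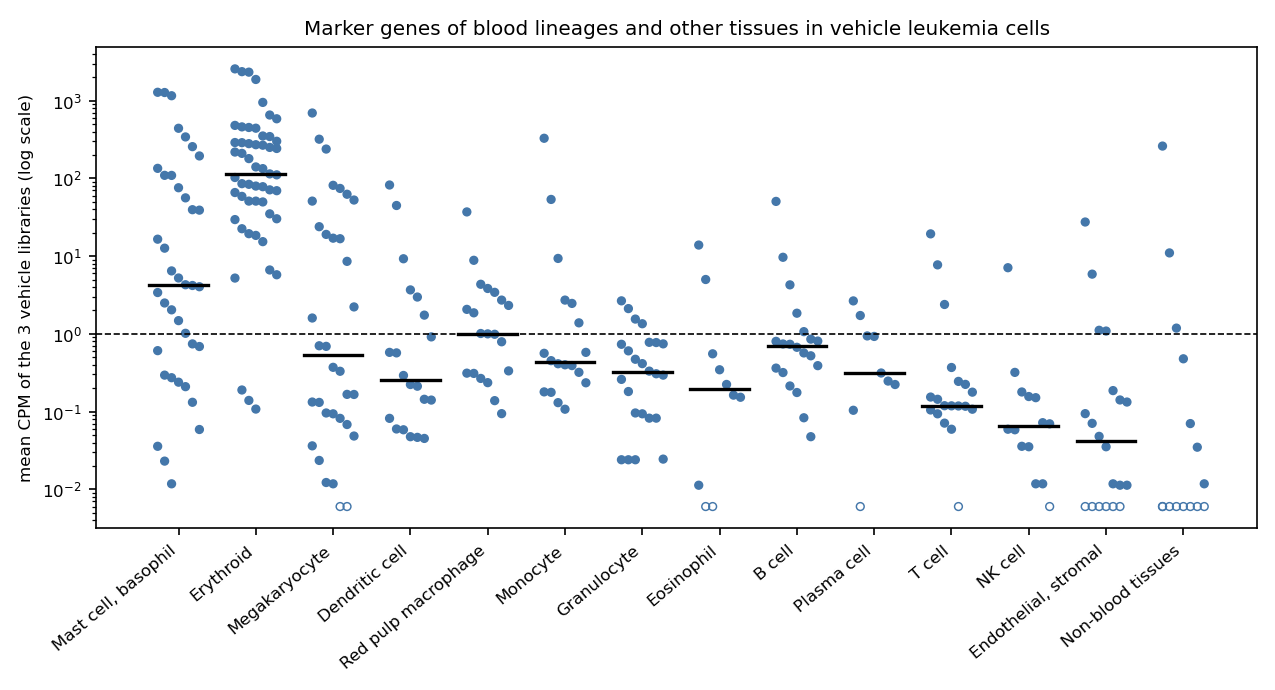
Mean CPM over the 3 vehicle libraries (log axis) of every marker gene in 14 lists, 1 point per gene; bars mark the list's median where it is above 0, the dashed line marks 1 CPM and open points at the bottom mark 0 counts in all libraries. The median is 114 CPM for red cell genes and 4.24 CPM for mast cell and basophil genes, and under 1.01 CPM in all other lists shown.

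The cell cycle list was expressed in full, 36 of 36 genes, against 41.7% of all genes. Mki67, a protein of dividing cells, was at 1793, 1376 and 1555 CPM, and Top2a, the topoisomerase of replicating DNA, was at 981, 747 and 878 CPM. Ccnd2 was at 805, 1122 and 951 CPM, Ccnd3 at 289.8, 329 and 319 CPM and Ccnd1 at 2.166, 2.31 and 1.80 CPM, so the first of these G1 cyclins had the highest level per kb (102 CPM per kb against 35.6 CPM per kb and 0.444 CPM per kb). Cdkn1a, which encodes the inhibitor p21, was at 124, 249 and 173 CPM, a 2.01-fold range with the low value in library 2. Mki67 and Top2a were highest in the library where Cdkn1a was lowest.

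Most genes differed little between the vehicle libraries. Among 9089 genes with a mean of 10 CPM or more, the median ratio of the highest to the lowest library was 1.137, and 85 genes (0.935%) spanned 2-fold or more. Library 2 was the lowest in 54 of the 85 and library 3 the highest in 43. The count fell to 19 without library 2 and to 46 without library 3, and was 73 without library 4. It was 157 with a minimum mean of 5 CPM and 53 with 20 CPM. The lowest count behind any of the 85 genes was 110.

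Most genes of the heat shock response were highest in library 4, and 10 of the 22 expressed spanned 2-fold or more. Hspa1a and Hspa1b, the inducible HSP70 genes, were at 20.6, 295 and 719 CPM and 25.5, 353 and 876 CPM, ranges of 34.9-fold and 34.3-fold. Their upstream windows are identical at 247 of 250 bases, and reads may be divided between the copies. Hspa1l, which lies beside them and shares 71.9% of its exon bases with another annotated gene, was at 7.41, 35.4 and 78.1 CPM. Hsph1, an HSP70 partner, was at 137, 308 and 543 CPM, and the co-chaperones Dnajb1 and Dnaja1 were at 64.1, 152 and 202 CPM and 234, 472 and 628 CPM. In all of these library 2 was the lowest and library 4 the highest. Of 22 expressed heat shock genes, 20 were highest in library 4, where 28% of all expressed genes were highest, and 21 were lowest in library 2. Hsf1, which encodes the factor that controls them, was at 68.6, 62.4 and 66 CPM. The window of Hspa1a shown above holds the word GAAGATTC at -104 to -97. A heat shock word stood in a window of 7 of 18 expressed heat shock genes (38.9%), against 12.1% of expressed genes. Cirbp, a gene known to be induced by cold, was at 43.3, 19 and 16.2 CPM, highest in library 2. This list and Cirbp were chosen after the values were seen.

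Immediate early genes, which respond to stimulation within minutes, were highest in library 2 instead. Fos was at 137, 4.04 and 9.81 CPM and Fosb at 136, 8.77 and 6.21 CPM, ranges of 34.1-fold and 21.9-fold. Egr1 was at 99.3, 12.7 and 13.8 CPM, Jun at 69.7, 13.2 and 20.6 CPM and Dusp1 at 38.4, 9.79 and 8.36 CPM. Library 2 stood far above both others in each of these genes. Junb and Ier2 were at 107, 49.6 and 48.2 CPM and 93.8, 61.8 and 64.4 CPM, again highest in library 2, whereas Fosl2 and Btg2 were not. Of 18 expressed genes in that list, which also holds Hspa1a and Hspa1b, 11 were highest in library 2, against 43.7% of all expressed genes. Replication histone genes, picked because they spanned 2-fold, were all 7 highest in library 2, H1f2 at 64, 40.3 and 26.8 CPM and H2ac24 at 19.2, 7.15 and 8.68 CPM among them. The libraries cannot be separated from the handling, sorting or sequencing of each sample with the labels at hand, and the part of these steps was not tested.

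**Figure D4:**
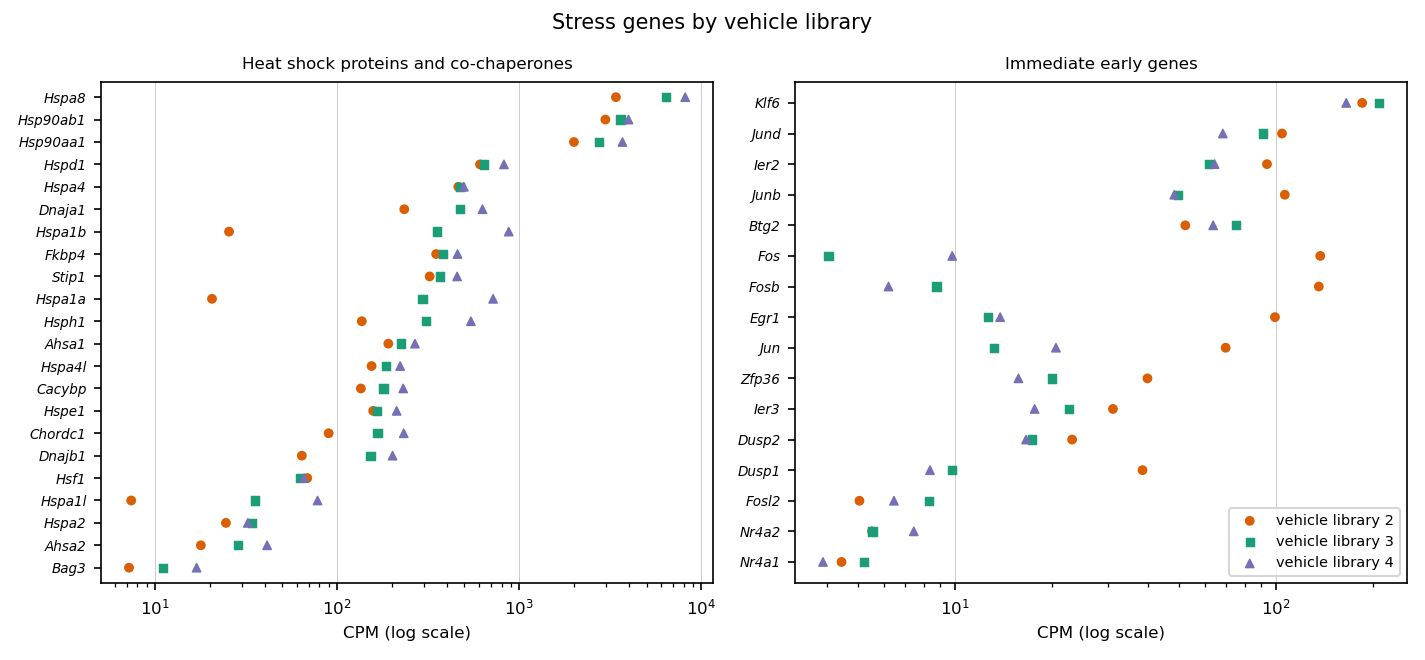
Level in CPM (log axis) of 22 heat shock genes and 16 immediate early genes, with 1 symbol for each vehicle library. Library 4 lies furthest right for 20 of the heat shock genes, with Hspa1a and Hspa1b near the left edge in library 2, and library 2 lies far to the right for Fos, Fosb, Egr1, Jun and Dusp1.

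Lineage genes also differed in which library held their highest value, by smaller amounts. Of 24 expressed mast cell and basophil genes, 21 were highest in library 3, where 28.3% of all expressed genes were highest, and their median difference between libraries 3 and 2 was 0.53 on the log2 scale. Megakaryocyte genes did so in 13 of 14 cases and mediator receptors in 21 of 23. Surface antigens did so in 29 of 41. Red cell genes were highest in library 2 in 35 of 50 cases, with a median difference of -0.21 between libraries 3 and 2, against 43.7% of all expressed genes. Cell cycle genes were highest there in 27 of 36. With TMM or DESeq2 scaling these became 31 of 50 and 25 of 36, and 38.2% or 38.8% of all expressed genes were highest in library 2.

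The single genes of these groups can be followed in the values above. Among mast cell genes with a mean of 10 CPM or more, Cpa3, Cma1, Tph1 and Fcer1a had a 2-fold range, and all 4 were highest in library 3. Below that mean the transcribed pseudogene Tpsab1 and the protease gene Mcpt4, the latter at 2.34, 3.71 and 1.45 CPM, also spanned 2-fold with library 3 highest. Maob, a monoamine oxidase, ran the other way at 9.002, 5.54 and 1.16 CPM, a 7.73-fold range with library 2 highest and library 4 lowest. C3ar1, a complement receptor, was at 16.7, 42.9 and 26.4 CPM, with the same library highest. S100a6, a calcium-binding protein, was at 7.55, 47.4 and 19.6 CPM, and Tnfsf14, a ligand of the TNF family, at 4.97, 19.8 and 8.40 CPM, both also highest in library 3. The GATA factors shared this order in part, with 14 of 29 highest in library 3 and 11 in library 2. Of all expressed genes, 28.3% were highest in library 3 and 43.7% in library 2. With TMM or DESeq2 scaling, 17 of 29 GATA factors were highest in library 3 and 8 in library 2. Under these scalings 30.2% or 29.4% of all expressed genes were highest in library 3. Heat shock genes, immediate early genes and lineage genes thus put the 3 libraries in different orders. Of the 11 marker lists of other cells, 8 summed to under 100 CPM in every library. The dendritic cell list came to 141, 151 and 153 CPM and the non-blood list to 266, 277 and 278 CPM. The monocyte list, mostly Ahnak, was highest in library 3 at 294, 519 and 394 CPM, as the mast cell list was. The mast cell list summed to 4955, 6378 and 5419 CPM and the heat shock list to 11440, 17283 and 22414 CPM. The part of other cells in the differences between libraries was not tested.

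**Figure D5:**
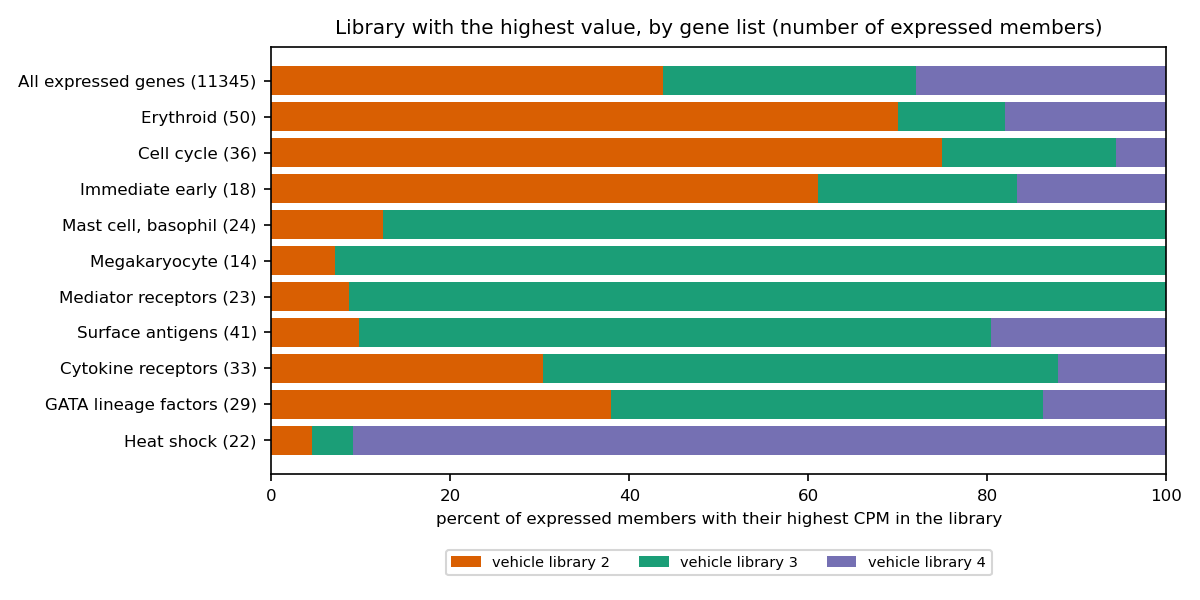
Share in percent of the expressed members of each list that had their highest CPM in vehicle library 2, 3 or 4, with the number of members in brackets. Library 3 takes 21 of 24 mast cell genes and 13 of 14 megakaryocyte genes, library 2 takes 35 of 50 red cell genes, and library 4 takes 20 of 22 heat shock genes.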

How the data were processed

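Messenger RNA libraries were built with an Illumina TruSeq kit, starting from 1 ug of total RNA of the sorted cells, per the labels' protocols. The authors deposited raw counts of reads for each Entrez gene ID. The submitters' processing notes name limma, featureCounts of Subread 2.0.0, HISAT2 2.1.0, cutadapt 2.1, FastQC 0.11.6 and bcl2fastq 2.17.1.14, and the mouse build mm10. The sources used here do not give the annotation, the strand setting or the treatment of reads that fit several places, so overlapping, antisense and near-identical genes (globin copies, Hspa1a and Hspa1b, Csf2rb and Csf2rb2, Xist and Tsix) may lose, gain or share reads.

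CPM was computed on the column totals of the 3 vehicle columns. Columns were tied to their group by name and not to a numbered replicate, and 0 columns had no group. Names, positions and promoter windows came from RefSeq (GRCm38.p6) for 25275 genes and names from GENCODE M21 for 17, and 1887 genes had none. Levels per kb used the union of GENCODE exons, known for 10383 of 11345 expressed genes. Unnamed genes held 1.66% to 1.77% of the counts. No test was run, since only 1 condition is described. Spread is given as the SD over 3 libraries or as the ratio of the highest to the lowest. Other scalings used edgeR 4.0.16 (TMM factors) and DESeq2 1.42.0 (size factors) in R 4.3.3.

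The members and the gene lists were chosen with earlier results of these data known. Named genes were the 20 with the highest mean CPM and the 20 per kb, the 5 highest members of each of 28 lists, defining members at 0 counts, the 10 widest ranges and a fixed set with Gata1, Gata2, Car2, Hdc, Ms4a2, Kit, Runx1, Runx1t1, Nras, Ptprc and Lyz2, without predicted or unnamed genes. Other genes, mainly low members of the lists, and 3 added lists (heat shock, replication histones and further single genes) were named after their values were seen. Ahsp, Hbb-b2, Hbb-bt and Cd99 of the lists and mitochondrially encoded genes were not analysed here, and the values of some other listed genes are not reported here.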

Additional observations from a re-analysis of the deposited data

How the results depend on the processing

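The counts of expressed genes, lineage factors, surface receptors and markers of other lineages stayed within 1.5-fold of the reported value under TMM and DESeq2 scaling, thresholds of 0.5 and 2 CPM, a mean of 1 CPM in place of every library, and leaving out each library. Expressed markers of other lineages went from 38 to 57 at 0.5 CPM, which is 1.5-fold, and to 26 at 2 CPM. The share of the 20 most abundant genes stayed within 1 SD without globin genes and without each library, the alternatives run for it. In all, 91 of 95 alternatives stayed within these limits, with 1 SD also used for single-gene values. The 4 others concern the number of genes with a 2-fold range between libraries, which was 85. It became 157 with a minimum mean of 5 CPM, 53 with 20 CPM, 19 without library 2 and 46 without library 3. Without library 4 it was 73, which is within the 1.5-fold limit. A range over fewer libraries can only be equal or smaller by construction. The cause of the other changes was not tested. Of 34 single-gene values under other scalings 0 moved beyond 1 SD. No paired analysis was possible because the vehicle libraries are not compared with another group and their columns carry no replicate number. Depth limits statements on genes under 0.102 to 0.11 CPM, the level that 0 counts allow.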
